A study of Rattus norvegicus with 88 samples.

Results

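The genes described here were Cd74 (ENSRNOG00000018735), RT1-Da (ENSRNOG00000032844), RT1-Ba (ENSRNOG00000000451), RT1-Bb (ENSRNOG00000032708) and B2m (ENSRNOG00000017123), which are 5 of the 17123 genes in an RNA-Seq table of the rat orbitofrontal cortex. They were taken by identifier, whatever their values, and all 5 had a row. The animals were heterogeneous stock (HS) rats, an outbred stock derived from inbred founder strains. They were housed in groups and had received no behavioural or drug treatment. Ages are given in the methods of the study and not in the labels. Each of the 80 libraries came from polyA RNA of the bilateral region of 1 rat, 41 males and 39 females. Sex was taken from the labels, whose totals of males and females over all samples are those of the study's text the other way round, so the sign of each sex difference rests on the labels. The labels sorted the rats into numbered batches without saying what a batch was. Batch 2 held 15 rats (11 males, 4 females), batch 3 held 22 (10 males, 12 females), batch 4 held 26 (12 males, 14 females) and batch 6 held 16 (8 males, 8 females), while batch 5 was a single female. No group differed in treatment or designed genotype, so the comparisons are between rats, batches and sexes. Values are normalized counts, which are estimated read counts scaled by the authors to a common upper quartile, or log2 of that count plus 1.

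Class II molecules of the major histocompatibility complex (MHC) are heterodimers that present peptides from the endocytic route to CD4+ T cells. RT1-D and RT1-B are the rat class II molecules that correspond to human HLA-DR and HLA-DQ. RT1-Da encodes the alpha chain of RT1-D, and RT1-Ba and RT1-Bb encode the alpha and beta chains of RT1-B. Cd74 is the invariant chain, which holds the groove of new class II molecules closed and directs them to endosomes. B2m is beta-2-microglobulin, the light chain of class I molecules, which nearly all nucleated cells carry. In the healthy brain class II is mainly found in small populations of macrophages at the borders and vessels and in some microglia, and its genes and Cd74 are switched on together by the coactivator CIITA through conserved X and Y boxes in their promoters. The Y box holds an inverted CCAAT box.

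The promoters are shown as background, and their part in the variation across rats described below was not tested. They are RefSeq sequences on assembly GRCr8, 250 bases before to 50 after the annotated start site, written 5′ to 3′ on the strand of the gene, and all 5 genes were matched by symbol. Capitals mark matches on either strand to ATTGG, the core of an inverted CCAAT box, to CTGATTGG, a Y box form that contains ATTGG, to TAGCAAC, an X box core, or to the interferon-stimulated response element, GAAA and GAAA with 2 bases of any kind between. The motifs were chosen after these sequences had been read.
Cd74 promoter, chr18:56526956-56527255, plus strand: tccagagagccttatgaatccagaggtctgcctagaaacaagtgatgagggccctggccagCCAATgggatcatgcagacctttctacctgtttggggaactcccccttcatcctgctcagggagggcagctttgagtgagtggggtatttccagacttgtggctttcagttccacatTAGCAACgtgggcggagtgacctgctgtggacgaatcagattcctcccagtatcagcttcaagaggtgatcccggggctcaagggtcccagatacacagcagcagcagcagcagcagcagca
RT1-Da promoter, chr20:4515165-4515464, plus strand: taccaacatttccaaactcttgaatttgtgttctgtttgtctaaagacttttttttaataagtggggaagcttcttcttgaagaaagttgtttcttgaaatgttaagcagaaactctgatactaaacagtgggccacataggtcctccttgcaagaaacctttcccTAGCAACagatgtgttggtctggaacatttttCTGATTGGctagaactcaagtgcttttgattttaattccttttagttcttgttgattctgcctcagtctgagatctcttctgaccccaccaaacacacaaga
RT1-Ba promoter, chr20:4576807-4577106, plus strand: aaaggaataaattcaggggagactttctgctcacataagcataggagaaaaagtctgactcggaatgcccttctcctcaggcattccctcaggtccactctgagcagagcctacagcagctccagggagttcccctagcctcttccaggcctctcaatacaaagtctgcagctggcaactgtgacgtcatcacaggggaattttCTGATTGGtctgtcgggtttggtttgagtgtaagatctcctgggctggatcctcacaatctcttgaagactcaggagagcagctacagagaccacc
RT1-Bb promoter, chr20:4604069-4604368, minus strand: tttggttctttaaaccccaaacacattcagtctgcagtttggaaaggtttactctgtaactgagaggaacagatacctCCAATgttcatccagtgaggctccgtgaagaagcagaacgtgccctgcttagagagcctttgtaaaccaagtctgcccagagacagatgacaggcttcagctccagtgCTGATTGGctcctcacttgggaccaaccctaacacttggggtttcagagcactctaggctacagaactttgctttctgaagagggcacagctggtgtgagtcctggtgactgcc
B2m promoter, chr3:129549080-129549379, plus strand: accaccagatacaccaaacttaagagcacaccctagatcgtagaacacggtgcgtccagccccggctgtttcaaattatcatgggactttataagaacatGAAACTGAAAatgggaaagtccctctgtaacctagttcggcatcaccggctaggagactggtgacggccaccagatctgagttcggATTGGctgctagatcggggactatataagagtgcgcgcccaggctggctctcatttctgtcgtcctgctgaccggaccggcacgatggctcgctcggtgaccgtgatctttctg

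RT1-Da carried CTGATTGG 52 bases upstream of its start site, RT1-Ba carried it 46 bases upstream and RT1-Bb 64 bases upstream. This 8-letter form occurred in 3.5% of the 33469 RefSeq promoters of the same length. TAGCAAC began 72 bases upstream in Cd74 and 84 bases upstream in RT1-Da, and occurred in 3.58% of promoters. B2m had GAAACTGAAA 150 bases upstream, a form found in 3.92% of promoters. ATTGG or its complement CCAAT was in all 5, but also in 37.5% of all promoters. A match describes the letters of the window and not a site in use, and exact strings miss variant forms. Since the motifs were chosen after these sequences had been read, the shares carry no test. In that assembly the RT1 genes lie on chromosome 20, with 2 protein-coding genes (RT1-Db2 and RT1-Db1) between RT1-Da and RT1-Ba and 0 between RT1-Ba and RT1-Bb. Cd74 lies on chromosome 18 and B2m on chromosome 3.

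Recovered depth spanned 5.67 to 25.6 M reads (M for mega) with a median of 18.6 M. The column names of the table rose in 3 runs. The first run held 14 rats of batch 2 and 7 of batch 3, and the second held 1 of batch 2 and 12 of batch 3. The third held 3 of batch 3 and every rat of batches 4, 5 and 6. The labels do not say what these runs are, but 64.7% of all genes differed between batches and batches and runs overlap, so each result below is also given by run where it mattered. No gene names could be joined to the other identifiers, so the markers of microglia, macrophages, blood, meninges, cortex and other cells could not be read, and their part in the results was not tested. In tissue RNA, fewer cells of a type and less RNA per cell cannot be told apart. RT1 genes are polymorphic and have close relatives, and the authors' alignment used 1 reference transcriptome. The estimated counts of RT1-Da, RT1-Ba and RT1-Bb may therefore be divided with related genes or lowered for some haplotypes, and this was not tested.

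Cd74 was detected in all 80 rats, with a lowest normalized count of 21, a median of 99.5 and a highest of 316. RT1-Da ranged from 2 to 85 with a median of 20. Its highest rat had an exact 95% Poisson interval of 69.4 to 103 and its lowest 0.208 to 6.21. These rats were picked as the ends of the 80, so the distance between their intervals tests nothing. RT1-Ba ranged from 0 to 40 with a median of 12.5, and 2 rats had 0. RT1-Bb ranged from 0 to 55 with a median of 11, and 3 rats had 0. A count of 0 allows up to 3 reads, or 3.69 by the exact two-sided interval, and such intervals cover counting error only. At this depth RT1-Ba had at most 3 recovered reads in 12 rats, RT1-Bb in 10 and RT1-Da in 4, so single low values of these genes are imprecise. B2m was abundant in every rat, from 2584 through a median of 3830 to 4887, and its highest value was only 1.89 times its lowest.

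**Figure D1:**
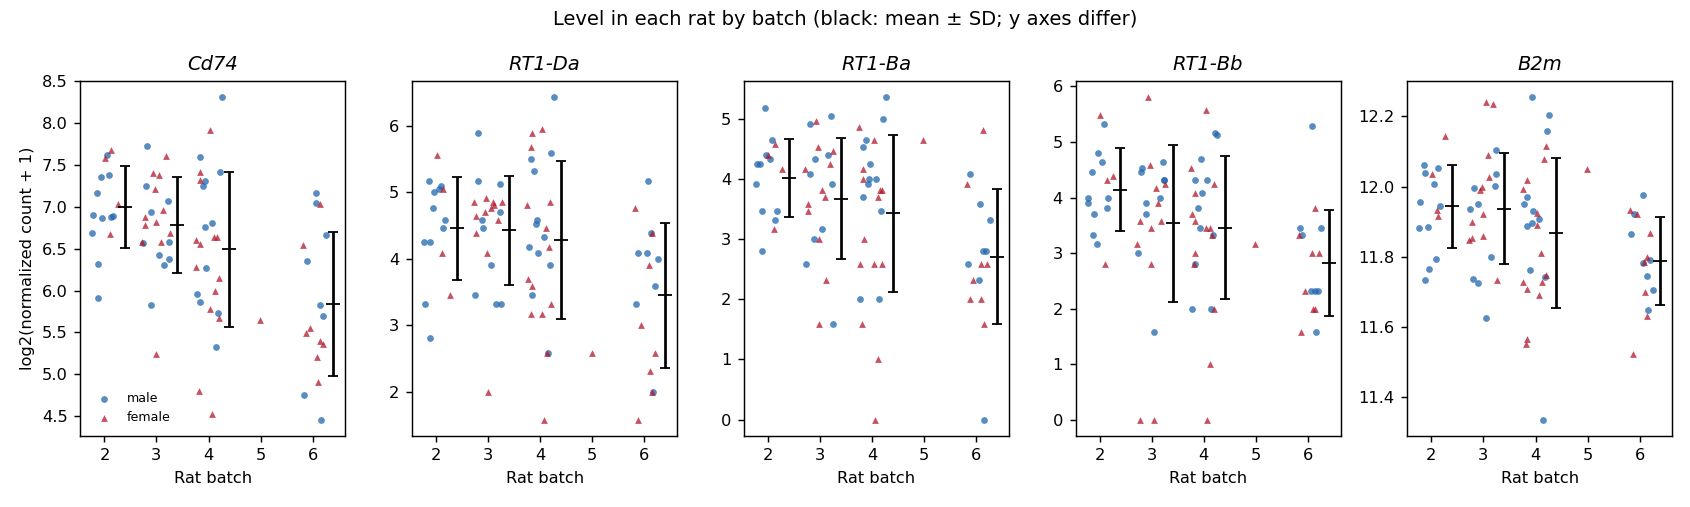
Level of each gene in each of the 80 rats, as log2(normalized count + 1) on the y axis, by rat batch on the x axis, with circles for males, triangles for females and black bars for the mean ± SD of each batch with more than 1 rat. The y axes differ: the class II genes and Cd74 spread over several log2 units within batches, while B2m stays between 11.34 and 12.26.

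By the gaps between their sorted values, no gene split the rats into separated high and low classes. With at least 6 rats on each side, the widest gap between neighbouring log2 values was 0.17 for Cd74, 0.26 for RT1-Da, 0.42 for RT1-Ba, 0.49 for RT1-Bb and 0.04 for B2m, and none reached 1. With at least 3 rats on each side, the widest was the step of 1.00 in RT1-Bb between the 3 rats at 0 and the rest, which is the step between a count of 0 and of 1. Beside counting error alone, the exact 95% Poisson interval of Cd74 lay above the median in 27 rats and below it in 27. For RT1-Da these numbers were 16 and 21, for RT1-Ba 16 and 19 and for RT1-Bb 21 and 16. For B2m, with its narrow range, they were 28 and 30, so such counts are not particular to the class II genes. These intervals hold no error of library preparation or scaling. By these gaps the levels showed no break between high and low rats. Scatter of low counts can fill a gap, so this rule could not detect classes that overlap.

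Among-rat spread was large for the class II genes and Cd74. After sex and batch were removed, the SD on the log2 scale was 0.76 for Cd74, 1.00 for RT1-Da, 1.08 for RT1-Ba, 1.17 for RT1-Bb and 0.17 for B2m. The SD of Cd74 exceeded that of 95.3% of the 14803 genes whose mean was 3 or more. Since low counts scatter more, each gene is better set beside genes of its own level. Among genes within 0.25 of its mean, Cd74 had a larger SD than 98.0%, with a median of 0.29 for those genes. By the same measure RT1-Da exceeded 90.3%, RT1-Ba 90.5%, RT1-Bb 91.4% and B2m 83.4%. With 20 principal components removed the SD was 0.48 for Cd74, 0.67 for RT1-Da, 0.55 for RT1-Ba, 0.68 for RT1-Bb and 0.10 for B2m. With a pseudocount of 10 it was 0.63 for RT1-Da, 0.53 for RT1-Ba and 0.58 for RT1-Bb. These values are descriptions and carry no test.

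**Figure D2:**
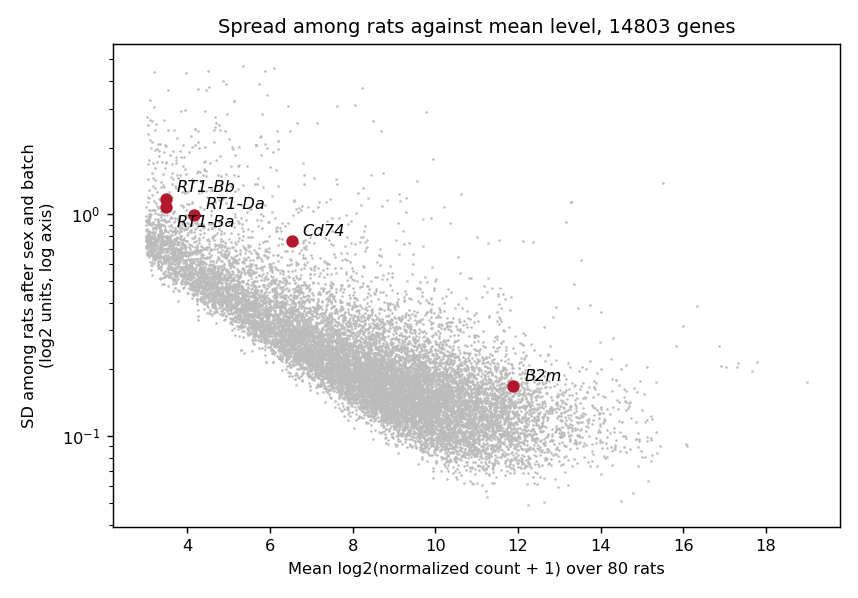
SD among rats after sex and batch (y axis, log2 units on a log axis) against the mean log2(normalized count + 1) over 80 rats (x axis), with 1 grey point for each of 14803 genes and red points for the 5 genes. Cd74 lies near the upper edge of genes at its level, the RT1 genes lie in the upper part of a wide cloud of low genes, and B2m sits lower down at an SD of 0.17.

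Single rats, chosen after their values were seen, show how the genes went together and apart. Batch 4 rat 20, a male, had the highest count of Cd74 (316), RT1-Da (85) and RT1-Ba (40), with RT1-Bb at 34 and B2m at 4721. Batch 4 rat 13, a female, was near the bottom for each, with Cd74 at 22, RT1-Da at 2, RT1-Ba at 0, RT1-Bb at 0 and B2m at 3307. In both rats, the alpha chain of RT1-D, the 2 chains of RT1-B and the invariant chain sat at the same end. Batch 6 rat 16, a male, was also low, with Cd74 at 21, RT1-Da at 3, RT1-Ba at 0, RT1-Bb at 2 and B2m at 3209. Other rats were discordant. Batch 3 rat 10, a female, had Cd74 at 165, RT1-Da at 26 and RT1-Ba at 13 but RT1-Bb at 0. Its library had 20.1 M reads but 1628 genes at 0, the most of the 80 libraries (median 509). Batch 3 rat 21, a female, had Cd74 at 117, RT1-Da at 24 and RT1-Ba at 11 with RT1-Bb again at 0. Its library had 11.7 M reads, of which 6 were of RT1-Ba. In these 2 rats the count of the alpha chain of RT1-B was near its median while the estimated count of its beta chain was 0. An estimated count of 0 does not show that the transcript was absent. Batch 3 rat 24, a male, went the other way within RT1-B, with RT1-Ba at 2 and RT1-Bb at 19. These were only 1 and 8 recovered reads in a library of 9.05 M, so this difference is imprecise. The single rat of batch 5 had RT1-Da at 5 and RT1-Ba at 24. The 3 discordant rats of batch 3 were all in the second column run.

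**Figure D3:**
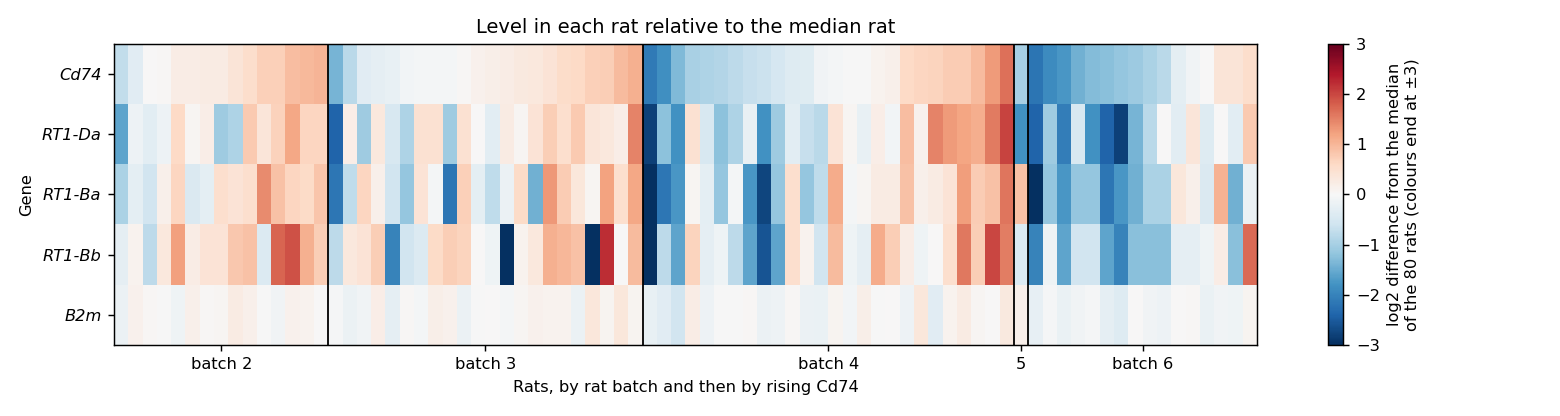
Difference of each gene (rows) from its median over the 80 rats, in log2 units by colour, with 1 column per rat ordered by rat batch and then by rising Cd74. Colours end at ±3; the RT1 genes mostly follow Cd74 from blue to red within a batch, with 2 dark blue cells for RT1-Bb in the middle and upper Cd74 columns of batch 3, and B2m stays pale throughout.

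The invariant chain and the class II genes rose and fell together across rats. Over the 80 rats, Cd74 and RT1-Da had a Pearson's r of 0.83 and a Spearman's rho of 0.81 (permutation test, two-sided, adjusted over 10 pairs, p = 1.25e-05 and p = 1.43e-05). Cd74 and RT1-Ba had an r of 0.77 and a rho of 0.73, and RT1-Da and RT1-Ba an r of 0.77 and a rho of 0.73, with the same adjusted p-values. RT1-Bb had an r of 0.58 to Cd74, 0.63 to RT1-Da and 0.68 to RT1-Ba (rho 0.65, 0.70 and 0.71). Among rats with more than 3 reads of both genes, RT1-Bb had an r of 0.67 to 0.69 to these genes, and they had 0.66 to 0.79 among themselves. Differences between these values were not tested. B2m had an r of 0.53 to Cd74, 0.47 to RT1-Da, 0.49 to RT1-Ba and 0.41 to RT1-Bb (rho 0.50, 0.45, 0.46 and 0.50). The largest adjusted p over all 10 pairs was 0.0001, so all 10 passed the threshold of 0.05. With 20 principal components removed, 5 passed: Cd74 with RT1-Da (r = 0.58) and RT1-Ba (0.40), RT1-Da with RT1-Ba (0.42) and RT1-Bb (0.37), and RT1-Ba with RT1-Bb (0.34). Cd74 with RT1-Bb (0.16) and the 4 pairs with B2m (0.06 to 0.21) did not. Without the 2 rats farthest from the median of the first gene of a pair, r was 0.52 to 0.80 among Cd74 and the class II genes and 0.42 to 0.55 with B2m. With sex and batch means removed r was 0.51 to 0.81 and 0.36 to 0.47, and all 10 pairs again passed.

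**Figure D4:**
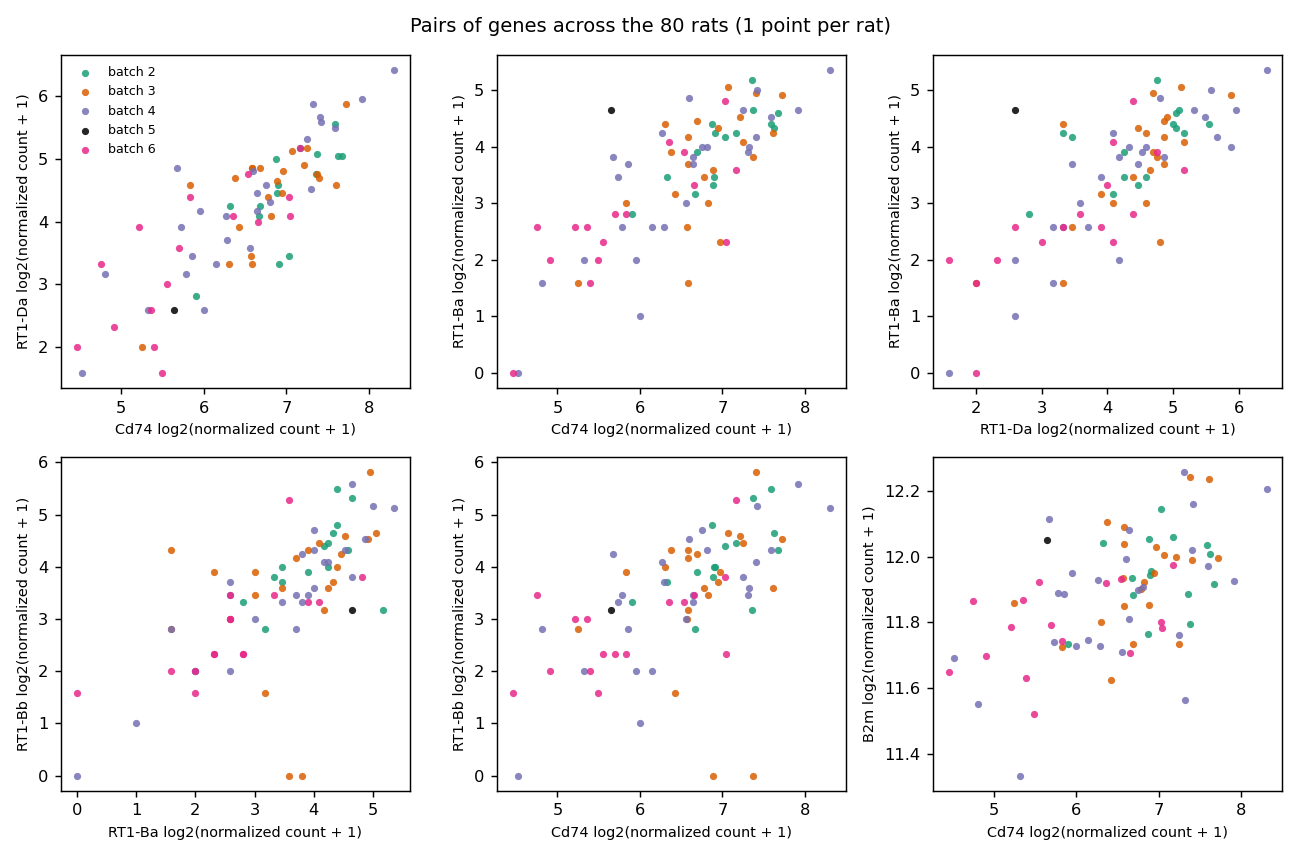
Levels of 6 pairs of genes, as log2(normalized count + 1) on both axes, with 1 point per rat coloured by rat batch. Cd74, RT1-Da and RT1-Ba rise together over their whole range, RT1-Bb has 2 rats of batch 3 at 0 beside ordinary Cd74 and RT1-Ba, and B2m follows Cd74 loosely over a narrow range.

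Within batches, r among Cd74, RT1-Da and RT1-Ba was 0.57 to 0.80 in batch 2, 0.61 to 0.72 in batch 3, 0.82 to 0.88 in batch 4 and 0.75 to 0.77 in batch 6. All of these passed but RT1-Da with RT1-Ba in batch 2 (r = 0.57, permutation test, adjusted p = 0.0550). RT1-Bb had an r to these genes of 0.74 to 0.91 in batch 4 and 0.61 to 0.76 in batch 6, but of 0.50 to 0.59 in batch 2 and 0.12 to 0.29 in batch 3. B2m had an r to the others of 0.54 to 0.60 in batch 4 and 0.40 to 0.71 in batch 6, against 0.01 to 0.27 in batch 2 and 0.02 to 0.47 in batch 3. Of the 10 pairs, 10 passed within batch 4, 9 within batch 6, 3 within batch 3 and 2 within batch 2. These groups differ in size, and the differences in r between batches were not tested. In batch 3, with rats of at most 3 reads of either gene left out, RT1-Bb had an r of 0.38 to 0.60 to Cd74, RT1-Da and RT1-Ba, these had 0.46 to 0.57 among themselves, and 0 of 10 pairs passed.

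By column run the picture differed more. Among Cd74, RT1-Da and RT1-Ba r was 0.83 to 0.87 in the first run (21 rats) and 0.78 to 0.85 in the third run (46 rats), but 0.34 to 0.41 in the second (13 rats). In the second run RT1-Bb had an r of -0.13 to Cd74, -0.14 to RT1-Da and 0.16 to RT1-Ba, and 0 of 10 pairs passed. Of these 13 rats, 2 had RT1-Bb at 0 (batch 3 rats 10 and 21). Values of r without these rats were not computed, so the low r of RT1-Bb may rest on them. Cd74 and B2m had an r of 0.70 there (permutation test, p = 0.00725, adjusted p = 0.0725). Cd74 spanned 56 to 168 there, a narrower range than the 21 to 316 of the third run. Its libraries had a median of 15.3 M reads, against 18.4 in the first run and 19.1 in the third run. The pairs of Cd74 with the class II genes thus passed in the first run and the third run. With 13 rats, missing the threshold in the second run does not show that co-variation was absent there. A difference between the runs was not tested.

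**Figure D5:**
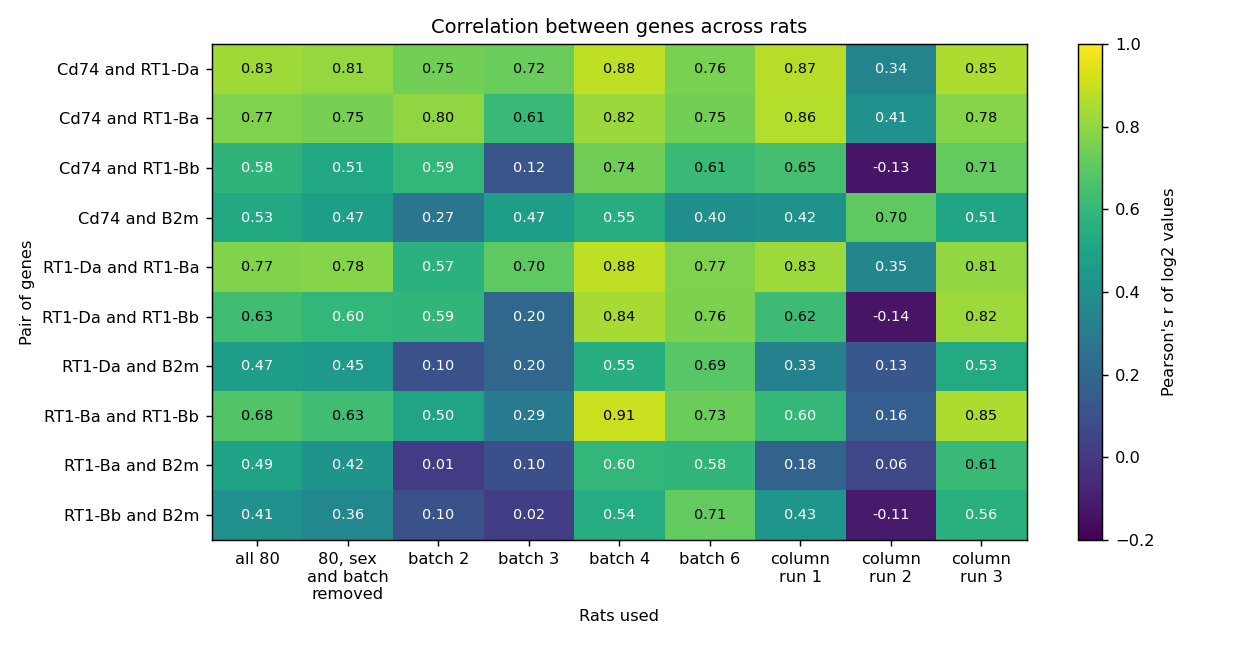
Pearson's r of log2 values for the 10 pairs of genes (rows) over all 80 rats, with sex and batch means removed, within each batch of more than 1 rat and within each run of columns (x axis), by colour and number. Over all 80 rats the highest values are those among Cd74, RT1-Da and RT1-Ba. The column for the second run, with 13 rats, holds the only negative values. These are all of pairs with RT1-Bb, which was at 0 in 2 of the 13 rats.

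Set against the rest of the table, Cd74, RT1-Da and RT1-Ba were each other's closest genes. With sex and batch removed, RT1-Da ranked 1 of 14802 genes by r to Cd74 (0.81) and RT1-Ba ranked 2 (0.75). For RT1-Da the first was Cd74 and the second RT1-Ba (0.78). RT1-Bb ranked 129 for Cd74, 88 for RT1-Da and 45 for RT1-Ba, while seen from RT1-Bb the gene RT1-Ba ranked 2 (0.63) and RT1-Da ranked 3 (0.60). B2m ranked 213 for Cd74 and lower for the RT1 genes, at 310 for RT1-Da, 373 for RT1-Ba and 300 for RT1-Bb. The closest gene outside the set was ENSRNOG00000033215 for Cd74 (0.73), ENSRNOG00000015550 for RT1-Da (0.77) and ENSRNOG00000029792 for RT1-Ba (0.75). It was ENSRNOG00000014936 for RT1-Bb (0.64) and ENSRNOG00000006865 for B2m (0.75). ENSRNOG00000015550 was also the second for Cd74 (0.72) and RT1-Ba (0.74). These are ranks over the same 80 rats and carry no test.

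The position of a rat relative to the median was shared in most but not all animals. Cd74 and RT1-Da were on the same side of their medians in 62 of 80 rats, and RT1-Da and RT1-Ba also in 62. Pairs with RT1-Bb agreed in 59 to 61 rats among the class II genes and Cd74, and pairs with B2m in 52 to 57. Of the 8 lowest rats for RT1-Da, 6 were among the 8 lowest for RT1-Ba, with ties at the edge for both. Of the 8 highest for Cd74, 5 were among the 8 highest for RT1-Da, 2 for RT1-Ba, 3 for RT1-Bb and 2 for B2m.

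Among the batches with more than 1 rat, batch 6 had the lowest median of every gene. The Cd74 count had a median of 119 in batch 2 (59 to 203), 110.5 in batch 3 (37 to 210), 94.5 in batch 4 (22 to 316) and 48.5 in batch 6 (21 to 143), and the batch 5 rat had 49. The batches overlapped throughout, and the lowest rat of batch 4 was close to the lowest of batch 6. RT1-Da had medians of 23 (6 to 46), 24.5 (3 to 58), 18 (2 to 85) and 12.5 (2 to 35) in batches 2, 3, 4 and 6. RT1-Ba had medians of 18 (6 to 35), 13.5 (2 to 32), 13 (0 to 40) and 5 (0 to 27). RT1-Bb had medians of 15 (6 to 44), 14 (0 to 55), 10.5 (0 to 47) and 5.5 (2 to 38). For each RT1 gene the highest rat of batch 6 was nevertheless above the medians of batches 2, 3 and 4. B2m had medians of 3941 (3407 to 4525), 3936.5 (3162 to 4843), 3804.5 (2584 to 4887) and 3538 (2941 to 4026), so batch 6 was again lowest, over a much narrower range.

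With sex in the model, 4 of the 5 genes passed the moderated F test of limma between batches 2, 3, 4 and 6 after adjustment over all genes. With 64.7% of all genes past the same threshold, this share is not a result about these genes. The adjusted p was 0.000526 for Cd74, 0.0210 for RT1-Da, 0.0169 for RT1-Ba and 0.0386 for B2m, and it was 0.0552 for RT1-Bb. B2m did not pass with quantile normalization or with depth as a term, and RT1-Bb passed with both. Against batch 2, all 5 were lower in batch 6, where 26.6% of all genes were lower. Cd74 fell by 1.13 on the log2 scale (SE 0.27, adjusted p = 0.000221), RT1-Ba fell by 1.24 (SE 0.38, adjusted p = 0.00454) and B2m fell by 0.16 (SE 0.06, adjusted p = 0.0228). RT1-Da fell by 0.94 (adjusted p = 0.0201) and RT1-Bb fell by 1.23 (adjusted p = 0.00967). With quantile normalization the B2m difference was -0.085 (adjusted p = 0.241) and no longer passed. Against batch 3, 4 of 5 were lower in batch 6, where 25.1% of all genes were lower, and RT1-Bb was the exception (-0.74, adjusted p = 0.0961). With quantile normalization RT1-Bb passed (-0.94, adjusted p = 0.0254) and B2m did not (-0.091, adjusted p = 0.162), and RT1-Bb also passed with a pseudocount of 10 (-0.44, adjusted p = 0.0394). Against batch 4, 1 of 5 was lower in batch 6, where 7.49% of all genes were lower. This was Cd74 (-0.66, SE 0.23, adjusted p = 0.0466), which kept its call in 8 of 14 alternatives. RT1-Da was just outside the threshold (-0.85, adjusted p = 0.0543) and passed in 3 of 14, among them quantile normalization (-0.90, adjusted p = 0.0368). None of the 5 passed between batches 2, 3 and 4, where 9.79% of all genes (batch 3 against 2), 48.6% (4 against 2) and 42.9% (4 against 3) did.

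No column run held rats of both batch 6 and batch 2. Their difference can be set apart from the runs only through batch 3, which had 3 rats in the third run. With the run as a further term, the batch 6 minus batch 2 difference of Cd74 was -1.50 with an adjusted p of 0.0770, and 0 of 5 genes passed the F test. The batch 6 minus batch 4 difference of Cd74 with that term was -0.66 (adjusted p = 0.0462). In batches 4 and 6 alone, which share 1 run, it was -0.67 (adjusted p = 0.0899). Without batch 6, 0 of 5 genes differed between the remaining batches. Pooled over the 80 rats, the levels also moved with the first principal component of all genes. The highest r was that of Cd74 (r = 0.44, rho 0.45, permutation test, adjusted over 15 tests, p = 0.00075 for both), which was 0.43 without the 2 farthest rats. Within batches 2, 3, 4 and 6 this r was 0.11, -0.13, 0.49 and 0.27. RT1-Ba (r = 0.30, rho 0.32) and B2m (r = 0.30, rho 0.36) passed too, each with an adjusted p of 0.0272 for r in the permutation test. RT1-Da (r = 0.25, rho 0.28) and RT1-Bb (r = 0.26, rho 0.36) passed by rho alone. Within batches 2, 3, 4 and 6 this r was 0.35, -0.35, 0.26 and 0.13 for RT1-Ba and -0.30, 0.03, 0.30 and -0.21 for B2m. RT1-Da and RT1-Bb also had r of both signs within batches. B2m also rose with the number of genes at 0 (r = 0.34, rho 0.31, permutation test, adjusted p = 0.0196 and 0.0160), with r of -0.23, 0.59, 0.13 and 0.15 within batches 2, 3, 4 and 6. Pooled r to log2 depth was between -0.11 and 0.00, with adjusted p-values of 0.66 or more. Within batches that r reached 0.51 for RT1-Bb and 0.35 for RT1-Ba in batch 4 and 0.43 for Cd74 in batch 6, which were not tested. With log2 depth removed all 10 pairs of genes passed over the 80 rats.

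Males and females did not differ detectably in any of the 5 genes. Over the 80 rats with batch as a factor, the male minus female difference was 0.11 for Cd74 (SE 0.17, adjusted p = 0.952), 0.29 for RT1-Da (SE 0.22, adjusted p = 0.853) and 0.30 for RT1-Ba (SE 0.24, adjusted p = 0.869) on the log2 scale. It was 0.41 for RT1-Bb (SE 0.26, adjusted p = 0.800) and 0.00064 for B2m (SE 0.038, adjusted p = 0.998). A p that misses the threshold does not show that the sexes are alike, and the errors of the RT1 genes were wide. Of all genes, 0.117% passed, and the smallest unadjusted p of the 5 was 0.120, for RT1-Bb. The median count was 107 in males and 96 in females for Cd74 and 14 and 10 for RT1-Bb. The 3 rats with RT1-Bb at 0 were females. The sex difference did not vary detectably between batches for any of the 5 (moderated F test of limma, adjusted p = 1.00 each). For that interaction 0 of 17123 genes passed, with 451 at an unadjusted p under 0.05.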

How the data were processed

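RNA of the orbitofrontal cortex was sequenced from HS rats. Of 88 labelled samples, 8 carried a removal mark (4 had few reads, 2 were outliers of expression, 2 did not match their genotype) and were not analysed here. The authors trimmed reads with cutadapt, estimated gene counts with RSEM against the Ensembl transcriptome (build Rnor_6.0 per the labels), adjusted them to the upper quartile with DESeq2 and deposited log2 values after adding a pseudocount of 1. By their filter, genes needed over 1 read in 25% of libraries and 100 reads in all. Tool versions are not given in the sources used here. Values are not per length, so levels of different genes were not compared.

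On the linear scale the values were whole once the pseudocount was taken off (largest relative departure 3.98e-06). The step between the whole numbers that occurred gave what 1 read was worth in each library (0.733 to 3.51) and so its depth, 18.1 ± 3.66 M recovered reads (M is the prefix mega) (SD, n = 80). The step was distinct in 79 of 80 libraries and was recovered within 1% in 20 of 20 simulated libraries. No 2 libraries were identical.

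Models used lmFit and eBayes with a mean trend in limma 3.58.1 (R 4.3.3) on the log2 values of all 17123 genes. Adjustment was by Benjamini-Hochberg over all genes, with a threshold of 0.05. They were also run on simulated counts with the same dispersion for every gene and no column runs. Such counts cannot show how the models behave with the spread and runs of these data. Batches 2, 3, 4 and 6 were compared with sex as a covariate, and the sexes with batch as a factor. Correlations used 100000 permutations, whose smallest p is 1e-05. Correlations ran in scipy 1.17.1, with pandas 2.3.3 and numpy 2.4.6 under Python 3.11.15, and plots in matplotlib 3.10.9. Rats are named by batch and by a number in accession order that pairs nothing. By the study's text some pairs of rats appear to be closely related, and p-values treat all rats as independent.

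The genes named are the 5 members and, for likeness, up to 2 genes outside them with the highest r. Members, names and lists were chosen with earlier results of these data known. The symbols of the 5 identifiers come from the definition of the set. The RefSeq table held 0 of the 17123 Ensembl identifiers, so the pathway and cell type lists that had been drawn up were not evaluated, and no protein sequences were used. The alternatives were another pseudocount (10), quantile normalization, a filter on low means, other covariates and samples, voom on recovered reads and, chosen after seeing the data, the column run, the shallowest library and rats with few reads.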

Additional observations from a re-analysis of the deposited data

How the results depend on the processing

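Of the 5 genes, 4 differed between batches, and 10 of the 16 alternatives gave between 3 and 5. The number was 0 with a term for stretches of columns set by change points, 0 with 20 principal components as covariates, 0 with a column run term, 0 in batches 4 and 6 alone, 2 without batch 2 (Cd74 and RT1-Da) and 0 without batch 6. Over all genes, 11078 differed between batches, against 3615 with the stretch term, 1 with the components, 3178 with the column run term and 2352 in batches 4 and 6 alone. With the components the batch 6 difference of Cd74 turned to 0.050 against batch 2, 0.23 against batch 3 and 0.38 against batch 4, and that of B2m to 0.084 against batch 2 and 0.17 against batch 3, none of them past the threshold (adjusted p 0.464 to 0.995). By gene, B2m passed the batch test in 5 of the 16 alternatives and RT1-Bb in 6. The components are drawn from the same values, and the cause was not tested. Pairs of genes correlated across rats, 10 of 10, came to 5 with the components removed, 2 within batch 2, 3 within batch 3, 0 within batch 3 with rats of few reads left out, 6 in the first column run and 0 in the second. In the second run r was -0.13 for Cd74 and RT1-Bb, -0.14 for RT1-Da and RT1-Bb and -0.11 for RT1-Bb and B2m. RT1-Bb was at 0 in 2 of the 13 rats of that run, and r without them was not computed. The other 13 alternatives gave 9 or 10 pairs, among them quantile normalization, removal of log2 depth and leaving out the shallowest library. Of the 5 genes, 0 passed for sex in the 15 alternatives and 0 for the interaction in the 5 alternatives run for it. No paired analysis was possible because rats were numbered in accession order within each batch. Depth limits the RT1 genes most: medians of 10 to 20 recovered reads leave single rats imprecise.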
